A study of Mus musculus with 6 samples.

Results

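Cytochrome c oxidase is the last enzyme of the mitochondrial respiratory chain, and several of its nuclear-encoded subunits come in a ubiquitous form and a form restricted to certain tissues. The 9 genes described here are the isoform genes of subunits 4, 6a, 7a and 8: Cox4i1 and Cox4i2, Cox6a1 and Cox6a2, Cox7a1 and Cox7a2 with its relative Cox7a2l, and Cox8a and Cox8b. They are 9 of 23284 genes listed. They were chosen by name, with Tfam KO against control values of these libraries already known, and among those values was the high Cox6a2 level in the KO. The comparison of the genotypes is therefore given for them as a description, with no test.

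Poly(A) RNA was sequenced from whole hearts of C57BL/6 mouse embryos at stage E13.5. Tfam KO embryos were Tfam fl/fl, with both alleles floxed, and Control embryos were Tfam fl/+, with 1 allele floxed and the other intact. Embryos of both groups carried 1 copy of Nkx2.5 IRES-Cre, a Cre recombinase expressed from a cardiac lineage gene, so the controls also had Cre and a floxed allele. Each group had 3 libraries, each of 5 pooled hearts. Tfam encodes the factor that packages mitochondrial DNA and starts its transcription. The Tfam row stood at 3.97, 4.77 and 6.22 FPKM in KO replicates 1, 2 and 3 and at 4.64, 5.55 and 6.62 in the controls, so the groups overlapped. In limma this gave a log2 fold change of -0.15 (SE 0.23) with an adjusted p of 0.651. Rescaled by the size factors described below, the KO libraries stood at 3.39, 5.17 and 4.68 and the controls at 5.60, 6.39 and 6.55, so every KO library was below every control, with a log2 fold change of -0.42 (SE 0.15, limma adjusted p = 0.152). A gene-level value of whole hearts includes cells outside the Cre lineage and exons outside the floxed segment.

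The catalytic core of cytochrome c oxidase is made from mitochondrial DNA, and the smaller nuclear-encoded subunits surround it and tune its stability and activity. Cox6a2, Cox7a1 and Cox8b are the forms of heart and skeletal muscle, which replace Cox6a1, Cox7a2 and Cox8a as these tissues mature. Cox4i2 is the form best known from lung and from the response to low oxygen, and Cox7a2l is a Cox7a2 relative that takes part in joining complex IV to complex III. The subunits of the mitochondrial genome were not analysed here.

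Paired forms are encoded by separate genes. Cox6a2 lies on chr7:128205435-128206387 and Cox6a1 on chr5:115345642-115348981 (GRCm38, both on the minus strand). The most alike 90 coding bases of this pair are shown, since it is the muscle and ubiquitous pair whose balance did not overlap between the genotypes. They were read from the GENCODE vM21 transcripts, 5′ to 3′, with the 19 bases that differ in capitals, and cover coding bases 189 to 278 of Cox6a2 and 234 to 323 of Cox6a1.
Cox6a2: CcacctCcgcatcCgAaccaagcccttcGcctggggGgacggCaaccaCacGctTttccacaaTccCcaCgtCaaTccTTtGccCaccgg
Cox6a1: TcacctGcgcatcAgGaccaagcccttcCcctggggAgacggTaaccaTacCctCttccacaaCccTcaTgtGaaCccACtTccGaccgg

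Over 290 aligned coding bases Cox6a2 and Cox6a1 were 66.6% identical, and the longest run without a difference was 12 bases. Identity was 64.3% for Cox7a1 and Cox7a2, 58.2% for Cox8b and Cox8a, 69.8% for Cox4i2 and Cox4i1 and 69.9% for Cox7a2l and Cox7a2, with longest identical runs of 10 to 14 bases. Read length is not given in the sources used here. Other loci did share sequence with some members, counted as stretches of 50 bases found in another gene's transcripts. None was found for Cox4i2, Cox7a1, Cox7a2, Cox8a or Cox8b. The share was 3.33% of Cox6a2 stretches (Itgad, which overlaps it on the other strand), 12.3% for Cox6a1 and 17.7% for Cox7a2l (a pseudogene each), and 14.7% for Cox4i1 (Emc8, its neighbour on the other strand). How such reads were counted, and whether strand was used, is not given in the sources used here.

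The 6 libraries held 12370092 to 18078620 reads and between 15586 and 16063 genes above 0. Values are FPKM, taken here as reads per gene scaled by transcript length and by library total. The formula and the counting of shared sequence are not given in the sources used here. Levels of different genes are therefore compared only roughly. The libraries did not share 1 scale: in log2 terms, the median of the 10807 genes tested was 0.28 higher in KO as deposited and 0.01 higher once libraries were rescaled by median-of-ratios size factors of 0.828 to 1.33. The precursor of ribosomal RNA, Rn45s, took 14.95% to 31.2% of reads in the KO libraries and 27.8% to 32.5% in the controls. Its part in the scale was not tested. Folds are given as deposited and with size factors, and a ratio of 2 genes within a library is the same on either scale.

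In control hearts the 9 genes spanned a wide range of levels. Cox8a, the ubiquitous form of subunit 8, was highest at 284 ± 10.1 FPKM (SD, n = 3), followed by Cox6a2 at 183 ± 31.3 and Cox4i1 at 156 ± 9.82, whose ranges overlapped. Cox6a1 stood at 83.3 ± 0.271, Cox7a2l at 50.9 ± 5.10 and Cox7a2 at 32.5 ± 3.67. The remaining tissue-restricted forms were lowest, Cox7a1 at 13.0 ± 3.08, Cox8b at 6.74 ± 2.48 and Cox4i2 at 1.88 ± 0.348. Apart from Cox6a2 and Cox4i1, no neighbours in this order overlapped. At the transcript level, these control hearts thus had more of the muscle form than of the ubiquitous form for subunit 6a. For subunits 7a and 8 they had less of the muscle form. In KO hearts Cox6a2 stood first at 620 ± 99.1 FPKM, above Cox8a at 278 ± 51.7 and Cox4i1 at 214 ± 18.5. The other 6 genes kept the control order there, and the ranges of Cox7a1 and Cox8b overlapped.

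**Figure D1:**
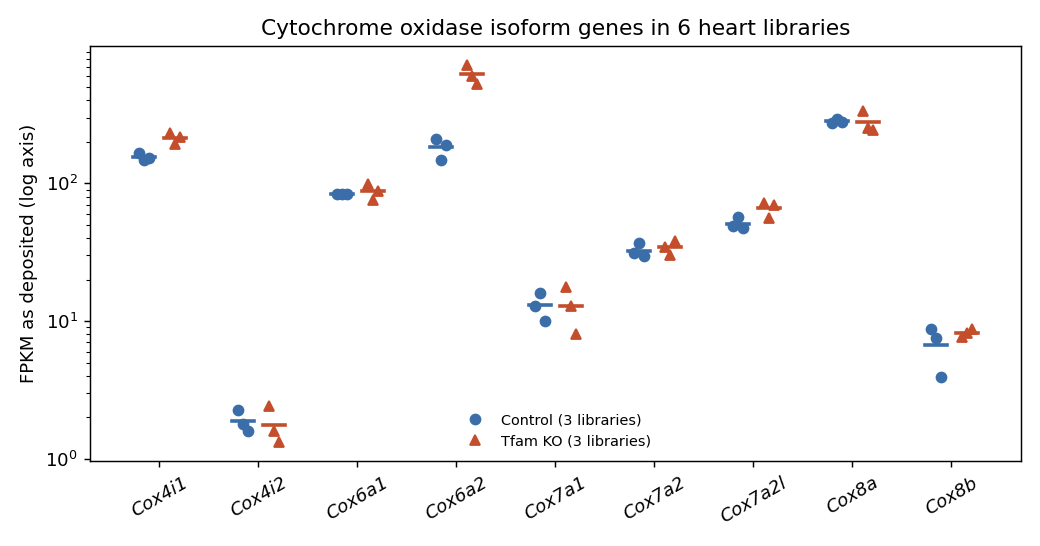
FPKM as deposited (log axis) of the 9 isoform genes in 3 Control (circles) and 3 Tfam KO (triangles) libraries, with a bar at each group mean. Cox6a2 sat at 529 to 726 FPKM in the KO and 149 to 211 in the controls. The groups of Cox4i1 did not overlap as deposited either (194 to 231 against 148 to 167), but they did with size factors.

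Cox6a2, the heart and skeletal muscle form of subunit 6a, was the member that stood apart between genotypes. Its level was 726, 604 and 529 FPKM in KO replicates 1, 2 and 3 and 211, 149 and 188 FPKM in control replicates 1, 2 and 3. Every KO library was above every control library, with a gap wider than either group's range as deposited. These values rest on 6000, 5494 and 5830 reads in the KO and 1936, 1215 and 2245 in the controls. The mean level was 3.39-fold higher as deposited and 2.73-fold higher with size factors, and the log2 fold changes were 1.76 (SE 0.22) and 1.43 (SE 0.21). Scaled by size factors, the KO libraries stood at 619, 654 and 398 FPKM and the controls at 255, 172 and 186, with no overlap but a gap narrower than the KO range. Among the 10807 genes tested, Cox6a2 had the 43rd highest log2 fold change as deposited and the 47th with size factors. In bulk hearts, a different number of cells of a type and a different amount of RNA per cell cannot be told apart.

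Cox6a1, the ubiquitous form of the same subunit, stood at 98.7, 76.3 and 88.1 FPKM in the KO and 83.6, 83.1 and 83.2 in the controls. The KO values lay on both sides of the controls. The log2 fold change was 0.07 (SE 0.23) on the deposited scale and -0.26 (SE 0.14) after size factors. The Cox6a2 to Cox6a1 ratio was 7.35, 7.91 and 6.01 in the KO against 2.52, 1.79 and 2.26 in the controls. No library of one group came near the other, and the ratio was 3.24-fold higher in the KO (log2 difference 1.70, SE 0.19). Cox6a2 made up 88.0%, 88.8% and 85.7% of the pair's summed FPKM in the KO and 71.6%, 64.2% and 69.4% in the controls (87.5 ± 1.59% against 68.4 ± 3.80%). When each library was left out in turn, the log2 difference lay between 1.56 and 1.81.

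**Figure D2:**
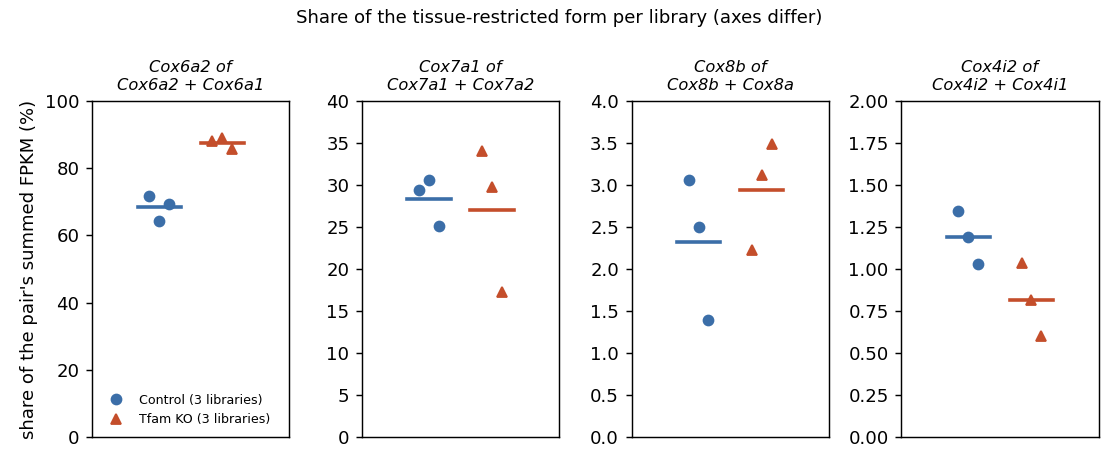
Share of the tissue-restricted form in the summed FPKM of its pair (%, axes differ between panels) in each Control (circles) and Tfam KO (triangles) library, with a bar at each mean. The Cox6a2 share was 85.7% to 88.8% in the KO against 64.2% to 71.6% in the controls, and the groups overlapped for the other 3 pairs.

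The muscle forms of subunits 7a and 8 had overlapping groups. Cox7a1 stood at 17.6, 12.9 and 8.01 FPKM in the KO and 12.9, 16.1 and 9.97 in the controls. The log2 fold change was -0.06 (SE 0.23), or -0.36 (SE 0.30) with size factors, from 49 to 81 reads a library. KO replicate 1 held the highest value of the 6 libraries and KO replicate 3 the lowest. Cox7a2, the ubiquitous form, stood at 34.3, 30.3 and 38.4 FPKM in the KO and 31.0, 36.7 and 29.8 in the controls (log2 fold change 0.08, SE 0.23, and -0.24, SE 0.14, with size factors). Cox7a1 formed 34.0%, 29.8% and 17.3% of this pair in the KO and 29.4%, 30.5% and 25.1% in the controls. The log2 difference of the ratio was -0.14 (SE 0.41), and without KO replicate 3 it was 0.24. The groups overlapped with all 6 libraries, and the sign of the difference rested on KO replicate 3.

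Cox8b, the muscle form of subunit 8, stood at 7.69, 8.18 and 8.74 FPKM in the KO and 8.70, 7.57 and 3.96 in the controls. Control replicate 3 was the lowest of the 6 libraries, with 26 reads against 34 to 53 in the others. The log2 fold change was 0.30 (SE 0.23), or 0.01 (SE 0.27) with size factors. Cox8a, a gene of 1912 to 2759 reads a library, stood at 337, 254 and 242 FPKM in the KO and 276, 295 and 280 in the controls. KO replicate 1 was above all controls and the other 2 KO libraries were below them, and its log2 fold change was -0.05 (SE 0.22), or -0.37 (SE 0.19) with size factors. The Cox8b share of the pair was 2.23%, 3.12% and 3.48% in the KO against 3.05%, 2.50% and 1.40% in the controls. The log2 ratio difference of 0.40 (SE 0.40) became 0.07 without control replicate 3.

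Cox8a and Cox8b also differed in the sequence before their start sites, which the choice of the genes did not use. RefSeq promoter entries (GRCm38.p6) matched 6 of the 9 genes, namely Cox6a1, Cox7a1, Cox7a2, Cox7a2l, Cox8a and Cox8b. The RefSeq start of Cox7a2l lies 2997 bases inside the gene as GENCODE places it, so its stretch is within that gene, and the starts of the other 5 lie within 27 bases of the GENCODE ends. Both promoters of the subunit 8 pair are shown as the 250 bases before the start, 5′ to 3′ on the gene's own strand, with each CpG in capitals. Cox8a lies at chr19:7217617-7217866 and Cox8b at chr7:140900447-140900696, both read from the minus strand.
Cox8a: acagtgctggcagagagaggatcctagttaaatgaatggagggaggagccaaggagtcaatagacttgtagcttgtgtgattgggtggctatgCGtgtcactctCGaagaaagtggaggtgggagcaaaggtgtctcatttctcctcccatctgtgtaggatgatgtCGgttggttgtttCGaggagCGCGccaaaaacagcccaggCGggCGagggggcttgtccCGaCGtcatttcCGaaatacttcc
Cox8b: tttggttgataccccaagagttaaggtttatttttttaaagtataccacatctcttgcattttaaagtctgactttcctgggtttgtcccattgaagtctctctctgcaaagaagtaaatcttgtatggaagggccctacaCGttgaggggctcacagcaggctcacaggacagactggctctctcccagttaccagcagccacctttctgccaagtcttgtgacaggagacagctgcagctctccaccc

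Cox8a held 11 CpG in this stretch and Cox8b held 1. The ubiquitous Cox6a1, Cox7a2 and Cox7a2l held 26, 14 and 13, and the muscle form Cox7a1 held 4. Of 32851 RefSeq promoters, 90.4% had fewer CpG than Cox6a1, 70.6% fewer than Cox7a2, 68.5% fewer than Cox7a2l and 64.4% fewer than Cox8a. The figures for the muscle forms were 37.8% for Cox7a1 and 7.87% for Cox8b. Among these 6 promoters the 4 of ubiquitous genes thus had more CpG than the 2 of muscle genes. Of 8 short motifs searched on both strands, the NRF1 core GCATGCGC (in 2.26% of all promoters) and the ETS core CCGGAAG (6.91%) were found in Cox6a1. The NRF1 core matched there on both strands, in 2 places that overlap. The HIF core ACGTG (16.6%) was found in Cox8b. The E-box CANNTG (66.2%) was found in each of the others and in Cox8b. The ERR element TCAAGGTCA (0.387%), the ATF4 composite element TGATGNAA (3.45%), the MEF2 site (2.92%) and the TATA box TATAAA (12.4%) were in none of the 6. A match of letters is no evidence of binding.

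Cox4i1, the ubiquitous form of subunit 4, stood at 231, 194 and 217 FPKM in the KO and 167, 148 and 154 in the controls. As deposited, the KO libraries all lay above the controls (214 ± 18.5 against 156 ± 9.82, log2 fold change 0.45, SE 0.22). With size factors the groups overlapped, at 197, 211 and 163 against 202, 170 and 152 FPKM, and the log2 fold change was 0.13 (SE 0.15). Cox4i2 was at 2.41, 1.59 and 1.32 FPKM in the KO and 2.27, 1.78 and 1.60 in the controls, the lowest level of the 9 genes. It rested on 16 to 23 reads a library, and the 95% Poisson interval of 16 reads runs from 9.15 to 26.0 (counting error only), so differences of this size could not be resolved at this depth. The log2 fold change was -0.07 (SE 0.21), or -0.28 (SE 0.19) with size factors. Cox4i2 formed 1.03%, 0.813% and 0.604% of the pair in the KO and 1.34%, 1.19% and 1.03% in the controls. The highest KO share and the lowest control share were the same to 3 digits, and the log2 ratio difference was -0.57 (SE 0.25). Without KO replicate 3 it was -0.37.

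Cox7a2l, the Cox7a2 relative, stood at 72.4, 56.5 and 69.8 FPKM in the KO and 49.0, 56.7 and 47.1 in the controls. KO replicate 2 lay within the control range, and the log2 fold change was 0.37 (SE 0.23), or 0.05 (SE 0.15) with size factors. Set against Cox7a2 in the same library, Cox7a2l had a ratio of 2.11, 1.86 and 1.82 in the KO and 1.58, 1.55 and 1.58 in the controls. These groups did not overlap, and the ratio was 1.23-fold higher in the KO (log2 difference 0.30, SE 0.07). Cox7a2 rested on 158 to 242 reads and Cox7a2l on 784 to 1340.

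Counted over the fit on the whole table, 1 member, Cox6a2, was past the threshold in limma (Benjamini-Hochberg adjusted p under 0.05) in the higher direction on both scales, and 0 were past it in the lower direction on either. The background was 6.21% of tested genes higher and 1.16% lower as deposited, and 2.07% higher and 2.5% lower with size factors. In limma-voom on recovered reads, used for other genes here, it was 2.72% higher and 4.08% lower. With p under 0.05 before adjustment it was 23.3% higher and 2.53% lower as deposited and 8.87% higher and 10.4% lower with size factors. Because the genes were picked on this contrast, nothing is read from that count. Over the 9 genes the median was 0.08 on the deposited scale, where that of all genes was 0.28, and -0.24 with size factors, where it was 0.01.

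**Figure D3:**
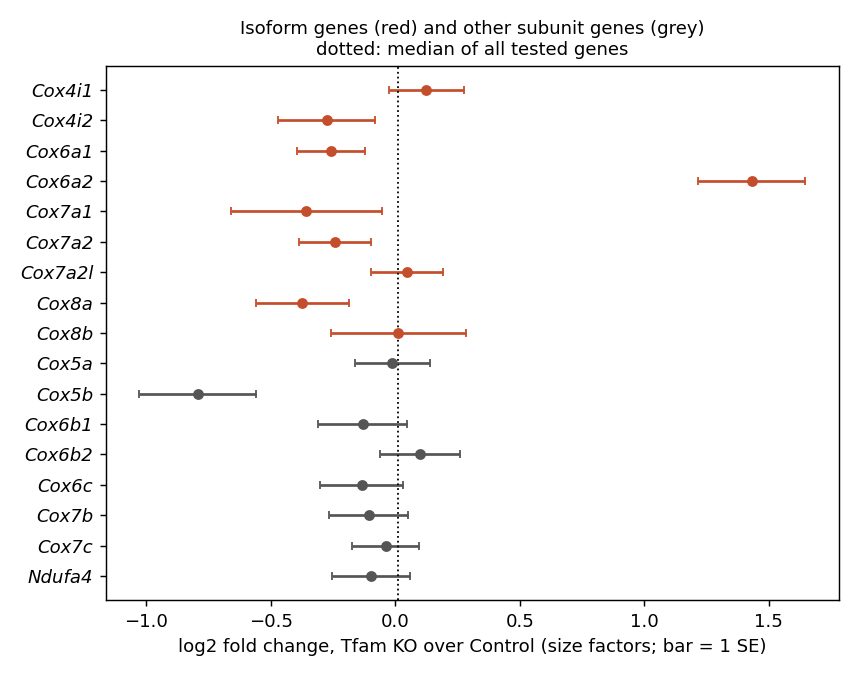
Log2 fold change of Tfam KO over Control with size factors (x axis, bars 1 SE) for the 9 isoform genes (red) and 8 other subunit genes (grey), with a dotted line at the median of all tested genes (0.01). Cox6a2 stood at 1.43, and the other isoform genes lay between -0.37 and 0.13.

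The other nuclear-encoded subunits gave a yardstick within each library. Of 10 such genes, 8 reached a mean of 1 FPKM: Cox5a, Cox5b, Cox6b1, Cox6b2, Cox6c, Cox7b, Cox7c and Ndufa4. Cox8c was at 0 in every library and Cox7b2 was above 0 in 1 control only. None of the 8 passed the limma threshold in either direction on either scale. Of all 10807 tested, 6.21% passed upward and 1.16% downward on deposited values, against 2.07% and 2.5% once size factors were applied. With shares this small, 0 calls among 8 genes does not set them apart. At an unadjusted p under 0.05 the count was 0 higher and 1 lower (Cox5b) on both scales. The same rule took in 23.3% upward and 2.53% downward of the whole tested set on deposited values, and 8.87% and 10.4% with size factors. After adjustment, limma-voom gave 0 higher and 1 lower, beside 2.72% and 4.08% of the whole set. Cox5b, a subunit on the matrix side of the enzyme, stood at 641, 416 and 365 FPKM in the KO and 685, 587 and 639 in the controls. KO replicate 1 lay within the control range and the other 2 lay below it, and with size factors all 3 lay below. In limma the log2 fold change was -0.47 as deposited (adjusted p = 0.147) and -0.79 (adjusted p = 0.0909) after size factors, with adjusted p between 0.0228 and 0.524 over 19 alternatives. The other 7 had log2 fold changes between -0.13 and 0.10 with size factors, and the median of the 8 was 0.22 as deposited and -0.10 with size factors.

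Over the geometric mean of Cox5a, Cox5b, Cox6b1, Cox6c, Cox7b and Cox7c, the summed subunit 6a pair stood at 4.55, 4.50 and 3.62 in the KO and at 1.39 to 2.06 in the controls. The pair as a whole was thus higher by 2.41-fold in the KO relative to these 6 subunits, and by 2.22-fold when Cox5b was left out, a choice made after its values were seen. The groups did not overlap either way. With size factors the pair's sum was 703, 737 and 465 FPKM in the KO and 356, 267 and 269 in the controls, a 2.14-fold difference of means. The subunit 4 pair was at 1.29, 1.30 and 1.28 in the KO and 1.18, 0.894 and 1.03 in the controls relative to the 6 subunits. Without Cox5b its groups overlapped (1.49 to 1.66 against 1.15 to 1.62). The subunit 7a pair (0.272 to 0.286 against 0.263 to 0.316) and the subunit 8 pair (1.47 to 1.90 against 1.81 to 1.99) overlapped. Cox7a2l was at 0.374 to 0.409 in the KO and 0.312 to 0.343 in the controls over the 6 subunits, and overlapped without Cox5b (0.457 to 0.514 against 0.416 to 0.469).

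**Figure D4:**
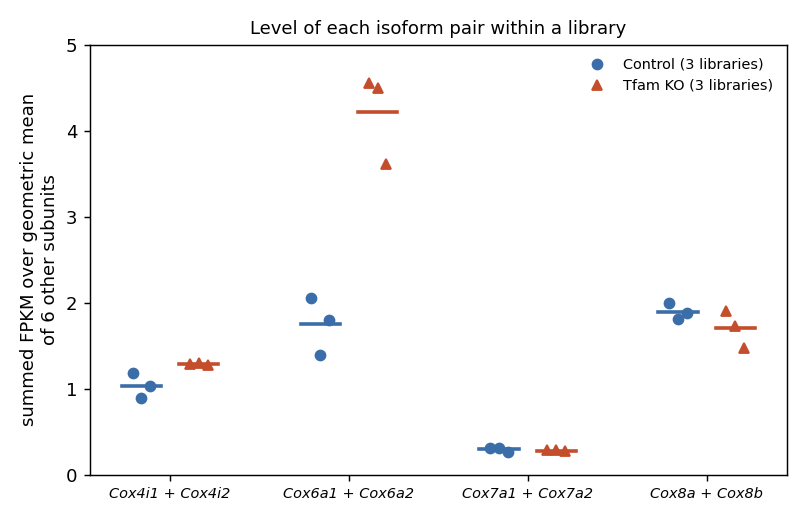
Summed FPKM of each isoform pair over the geometric mean of 6 other subunits (y axis, a ratio within a library) in Control (circles) and Tfam KO (triangles) libraries, with a bar at each mean. The subunit 6a pair was at 3.62 to 4.55 in the KO and 1.39 to 2.06 in the controls, and the subunit 7a and 8 pairs overlapped.

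Cell type markers were set beside these values, since several of the genes mark muscle. All 12 cardiomyocyte markers were detected in each library, and their sum with size factors was 10676 to 18711 FPKM in the KO and 15499 to 19970 in the controls. The median log2 fold change of the 12 was 0.01 as deposited and -0.31 with size factors. In limma 0 passed the threshold as deposited. With size factors 1 passed in the lower direction, Ttn (log2 fold change -0.71, adjusted p = 0.0413), beside 2.5% of all genes. Relative to the geometric mean of these markers, Cox6a2 was at 1.81, 1.50 and 1.18 in the KO and 0.557, 0.363 and 0.446 in the controls, a 3.29-fold difference of means with no overlap. Cox6a1 overlapped on this measure (0.189 to 0.246 against 0.197 to 0.221), as did Cox4i2, Cox7a1, Cox7a2, Cox8a and Cox8b. Every KO library was also above every control for Cox4i1 (0.482 to 0.577 against 0.360 to 0.441, 1.32-fold). The same held for Cox7a2l (0.140 to 0.181 against 0.111 to 0.138, 1.26-fold). Summed skeletal muscle markers were at 3.63 to 4.30 FPKM in the KO and 4.40 to 11.7 in the controls, with Myf5 and Myf6 at 0 in all 6 libraries. These sums were low throughout and did not overlap between the groups, the KO being lower, though they did as deposited (3.97 to 4.84 against 4.03 to 9.72). Among them Mylpf, a fast muscle light chain named after its values were seen, fell from 3.03 ± 1.14 to 1.07 ± 0.0314 FPKM (limma adjusted p = 0.000743, or 0.0135 after size factors). Tnnt3, the other of the 2 markers tested, was at 2.20 ± 0.319 FPKM in the KO and 1.26 ± 0.420 in the controls. Its limma log2 fold change was 0.52 (adjusted p = 0.106), or 0.31 (adjusted p = 0.416) after size factors. The part of skeletal muscle in the muscle isoform values was not tested. Brown fat, another tissue of Cox7a1 and Cox8b, had summed markers of 3.29 to 4.21 against 3.67 to 4.32 FPKM, and its defining gene Ucp1 was at 0 throughout. Sums for endothelium (135 to 145 against 142 to 145), epicardium (34.0 to 41.7 against 31.2 to 43.4), mesenchyme (324 to 367 against 249 to 364), macrophages (10.2 to 12.8 against 8.43 to 11.99) and red cells (3332 to 10166 against 6209 to 12711) overlapped between the groups with size factors. As deposited the mesenchyme sum did not overlap, at 337 to 488 against 216 to 318 FPKM, and 3 of its 6 markers were past the limma threshold in the higher direction, where 0 were with size factors. Also past it in that direction, as deposited only, were 1 of 8 endothelial markers (Emcn) and 1 of 6 macrophage markers (Cx3cr1). The part of these cells in the isoform values was not tested.

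Itgad, the integrin gene that overlaps Cox6a2 by 70 exon bases on the other strand, was also read more often in the KO, with 34, 21 and 35 reads against 2, 6 and 5 in the controls. These reads equalled 0.567%, 0.382% and 0.600% of the Cox6a2 reads of the KO libraries and 0.103%, 0.494% and 0.223% of those of the controls. Itgad was below the level filter and was not tested. Cox4nb, the name under which the neighbour of Cox4i1 is listed, stood at 3.59 ± 0.638 FPKM in the KO and 3.38 ± 0.280 in the controls.

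Assembly of the enzyme needs dedicated factors that insert heme A and copper and hold the core subunits. A list of 31 genes was drawn up, which also took in genes that act more widely, such as Lrpprc and Slirp. The table held 30 of them, some under older symbols, and 28 were tested. In limma 3 were higher and 1 lower in the KO as deposited, against 2 higher and 1 lower when size factors were used (background as above). Their median log2 fold changes of 0.28 (deposited) and -0.01 (size factors) lay beside those of all genes.

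Cox10, the farnesyltransferase of heme A synthesis, rose from 5.86 ± 0.533 to 12.8 ± 2.08 FPKM, with every KO library above every control (limma adjusted p = 0.000601). Rescaled by size factors it had a log2 fold change of 0.71 (limma adjusted p = 0.0109). Lrpprc, which stabilises mitochondrial messenger RNA, rose from 17.8 ± 3.15 to 39.1 ± 8.51 FPKM (limma log2 fold change 1.09 with adjusted p = 0.000144, or 0.77 with adjusted p = 0.00581 after size factors). Its partner Slirp, listed as 1810035L17Rik, was at 20.7, 9.50 and 14.6 FPKM in the KO and 6.17, 9.65 and 9.24 in the controls and passed as deposited only (limma adjusted p = 0.0283, and 0.278 with size factors). Coa6, a factor for copper delivery listed as 1810063B05Rik, fell from 14.6 ± 0.977 FPKM in the controls to 7.47 ± 0.195 in the KO, and no library overlapped. The limma log2 fold change was -0.88 (SE 0.23, adjusted p = 0.00486), or -1.17 (adjusted p = 0.00114) after size factors. Over 19 alternatives the adjusted p ran from 4.22e-06 to 0.0577 for Cox10, from 3.87e-07 to 0.0571 for Lrpprc and from 0.000108 to 0.0713 for Coa6, each past the threshold in 18. The exceptions were Cox10 without control replicate 3 with size factors, Lrpprc with no level filter, and Coa6 without control replicate 1.

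The list around cytochrome c, the electron donor of the enzyme, gave no call in limma on either scale. Of 4 listed genes 3 were tested: Cycs, Cyc1 and Hccs. Only Cycs of these encodes cytochrome c, while Cyc1 is a subunit of complex III and Hccs a heme lyase. At an unadjusted p under 0.05 all 3 were higher as deposited, where 23.3% of all genes were, and 0 with size factors. In limma-voom 0 passed after adjustment. Cycs, the somatic cytochrome c, was at 55.1 ± 9.78 FPKM in the KO and 38.7 ± 8.58 in the controls (limma log2 fold change 0.51 with adjusted p = 0.143, or 0.19 with adjusted p = 0.590 after size factors). Cyct, the testis form, was at 0 in all libraries.

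Among 19 regulators of mitochondrial and muscle genes, 1 was past the limma threshold as deposited, in the higher direction, where 6.21% of all genes were, and 0 with size factors. Hif1a, the oxygen-regulated factor that acts on Cox4i2 in other tissues, was at 80.5, 80.7 and 131 FPKM in the KO and 40.6, 56.9 and 65.7 in the controls (limma log2 fold change 0.82 with adjusted p = 0.00959, or 0.49 with adjusted p = 0.131 after size factors). At an unadjusted p under 0.05 with size factors, 1 regulator was higher (Hif1a) and 5 were lower (Esrrb, Mef2d, Srf, Myocd and Chchd2), beside 8.87% and 10.4% of all genes. After adjustment limma-voom gave 0 higher and 1 lower (Myocd). Ppargc1a, a coactivator of mitochondrial genes, was at 23.2 ± 6.03 FPKM in the KO and 17.8 ± 4.78 in the controls, with overlapping libraries.

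The genes whose size-factor scaled values followed a member most closely over the 6 libraries were found as the smallest mean absolute difference of centred log2 values among 9975 genes. For Cox6a2 they were Psph (0.0894), Shmt2 (0.152), Cdkn1a (0.163), Slc3a2 (0.172) and Lonp1 (0.178). Values were centred over both groups, so this likeness largely restates the genotype difference for which Cox6a2 was already known. The log2 fold changes of these 5 were 1.32 to 1.55 with size factors, beside 1.43 for Cox6a2. Shared regulation was not tested. Psph, an enzyme of serine synthesis, was at 10.9 ± 2.45 FPKM in the KO and 2.90 ± 0.472 in the controls, and the mitochondrial serine enzyme Shmt2 at 39.0 ± 8.55 and 10.95 ± 1.77. The mitochondrial protease Lonp1 was at 73.1 ± 11.9 and 19.4 ± 0.970 FPKM. All 5 were far below Cox6a2 in level. The nearest gene was C1qtnf6 for Cox7a1 (0.167), Cygb for Cox8b (0.128) and Tecr for Cox4i2 (0.0479). The log2 scale with 1 FPKM added compresses the differences of a gene as low as Cox4i2.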

How the data were processed

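Poly(A) RNA libraries of pooled embryonic hearts, 3 Tfam KO and 3 Control, each gave a deposited table of 23284 genes with log2(FPKM + 1) values. The FPKM unit comes per the file names and the log2 scale from the values the authors deposited. Per the submitters' processing notes, TopHat2 2.0.7, HTSeq 0.5.3, CASAVA 1.8.2 and the mm9 build were used, in no stated role. The annotation, strand setting and FPKM formula are not given in the sources used here.

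Values were turned back to FPKM. FPKM keeps the steps of whole reads, so library totals were recovered from at least 326 genes per library, and all 17876 genes above 0 gave whole reads within a tolerance of 1e-05 for low counts, wider for high ones. A gene's reads may be off by a whole factor, equal in all libraries. Intervals on reads are exact Poisson at 95%.

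Differences were fitted with limma 3.58.1 (R 4.3.3; group as the only term, trended variances, two-sided, Benjamini-Hochberg, threshold 0.05) on log2(FPKM + 1), keeping the 10807 genes whose mean over the libraries reached 1 FPKM. Folds on this scale understate low genes. The words rose and fell are kept for genes past the threshold both as deposited and after median-of-ratios size factors. On simulated reads of the comparison of Tfam KO with Control over 10807 genes, 52% of 2-fold changes were found as deposited, 89% with size factors and 91% with limma-voom, and 100% of 4-fold changes in each, with 38, 6 and 6 unchanged genes called. The simulation gave every gene the same spread, set from well-read genes, and placed no change in genes of few reads. Its shares do not carry over to genes of few reads or wider spread. Alternatives were size factors, pseudocounts, level filters, a replicate block, limma-voom on the recovered reads and leaving out each library. No pair of libraries was alike within sampling noise. P-values measure the spread between pools.

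The 9 genes, the lists and the rule for named genes were chosen with earlier results of these data known. Named were every member, genes of the assembly, cytochrome c and regulator lists past the threshold on either scale, all other subunits by value or range, each further isoform pair (1 of them is not reported here), marker sums, and the 5 genes most like each tissue-restricted form, without predicted and numbered symbols. Of the 5 likest genes of Cox7a1, Cox8b and Cox4i2 only the nearest is given. Genes were matched through RefSeq synonyms (GRCm38.p6). Coding sequences and overlaps came from GENCODE vM21 (GRCm38), a later build than the files', so no coordinate was joined to the files.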

Additional observations from a re-analysis of the deposited data

How the results depend on the processing

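The 5 log2 ratio differences moved by less than 1 SD of the libraries under all 10 alternatives each (pseudocounts of 1 and 0.1 FPKM, each library left out, the replicate block, summed FPKM). The replicate block could not move them, since each replicate number occurs once in each group. Among the alternatives the Cox7a1 to Cox7a2 difference changed sign. That of Cox8b to Cox8a ran from 0.07 without Control replicate 3 to 0.65 without Control replicate 1. The median log2 fold change of the 9 genes, 0.08 as deposited, was -0.24 with size factors and with the replicate block with size factors, -0.23 with limma-voom, and 0.02 to 0.22 when single libraries were left out. With size factors it was -0.22 and -0.30 without Tfam KO replicates 1 and 2, 0.02 without Tfam KO replicate 3, which turned its sign, and -0.14, -0.13 and -0.36 without Control replicates 1, 2 and 3. Leaving out libraries with size factors, and Cox5b from the mean of other subunits, were chosen after seeing the data. Other subunit genes counted lower went from 0 to 1 under the replicate block with and without size factors, under limma-voom, and without Tfam KO replicate 1 with size factors. Over single libraries left out of the deposited values the count lower was 0 and the count higher 0 to 1, the 1 being without Tfam KO replicate 2. Assembly genes higher, 3 as deposited, were 1 with no filter, 7 under the replicate block, 1 without Control replicate 3 with size factors, and 2 to 5 with single libraries left out (5 without Tfam KO replicate 2). Assembly genes lower were 0 to 1, the 0 being without Control replicate 1. Whether the replicate numbers pair the libraries is not settled by these values. Deviations of same-numbered libraries correlated at 0.36, 0.0688 and 0.159 over 10807 genes, and those of different numbers at -0.391 to 0.252. Tfam KO replicates 1 and 2 correlated best with the control of their own number, and Tfam KO replicate 3 with Control replicate 2 (0.252). Depth limits Cox4i2, Cox8b and Cox7a1, at 16 to 81 reads a library.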

Other observations

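Other enzymes with a muscle and a general form were set beside the cytochrome oxidase pairs as ratios within each library, with no test, since 3 libraries against 3 are few and the list was drawn up with results of these data known. Hexokinase was the pair that differed most in the direction of its muscle form. The Hk2 to Hk1 ratio was 0.513, 0.502 and 0.529 in the KO and 0.215, 0.246 and 0.261 in the controls, a log2 difference of 1.10 (SE 0.09). No KO library approached the controls. Relative to the cardiomyocyte markers Hk2 was 2.07-fold higher in the KO, and relative to the 6 other oxidase subunits 1.94-fold.

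Other pairs leaned to the general form or overlapped. The beta-enolase of muscle, Eno3, over Eno1 had a ratio of 5.88, 6.42 and 4.21 in the KO and 8.51, 10.6 and 6.98 in the controls (log2 difference -0.66). The muscle ADP/ATP carrier Slc25a4 over Slc25a5 had a log2 difference of -0.34, and in both pairs every KO library was below every control. Ckm over Ckb (0.11), Pgam2 over Pgam1 (-0.24) and Cpt1b over Cpt1a (0.01) overlapped. The muscle forms of these pairs therefore did not differ between the genotypes in 1 common direction. The pair Ckmt2 and Ckmt1 gets no ratio, since Ckmt1 is listed at 0 in a library.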
